A study of Arabidopsis thaliana with 12 samples.

Results

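Phenylpropanoids start from phenylalanine, and the first enzymes of the route are shared by lignin, flavonoids, sinapate esters and coumarins. The 10 Arabidopsis thaliana genes described here encode these entry enzymes and, with CCR2, a later step that leads to lignin only. All 10 are called entry genes here. With earlier results of these data known, they were chosen by locus, as the probes paired with the loci of PAL1 (AT2G37040), PAL2 (AT3G53260), PAL3 (AT5G04230), PAL4 (AT3G10340), C4H (AT2G30490), 4CL1 (AT1G51680), 4CL2 (AT3G21240), 4CL3 (AT1G65060), 4CL5 (AT3G21230) and CCR2 (AT1G80820). They were 10 of the 25405 loci with a probe on the array and 10 of the 19027 genes that could be tested. The array held 14 probes for them, of which 12 passed the filter on low signal, and every one of the 10 genes kept at least 1 probe, which passed in each of the 4 groups.

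RNA came from whole 10-day-old seedlings of the ecotype Landsberg erecta (Ler), in 4 groups of 3 arrays each, which the study ran as biological repeats. The groups were proatcape1 under salt, wild type (WT) under salt, proatcape1 in control medium and WT in control medium. The salt groups had 125 mM NaCl for 12 h, and the control groups are labelled 1/2 MS at 0 h, so the effect of salt and that of the 12 h that passed cannot be told apart. The proatcape1 plants are a single T-DNA insertion line in Ler, in which the gene PROAtCAPE1 (AT4G33730), the precursor of the peptide AtCAPE1, is interrupted. The comparisons ask how these genes stood under salt in each genotype, how the genotypes differed within each condition, and whether the salt effect itself differed.

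Phenylalanine ammonia-lyase (PAL) removes ammonia from phenylalanine to give cinnamate. Cinnamate 4-hydroxylase (C4H), a cytochrome P450 of the endoplasmic reticulum, makes p-coumarate from it, and 4-coumarate:CoA ligase (4CL) couples p-coumarate and related acids to coenzyme A, which is the branch point towards lignin and flavonoids. Cinnamoyl-CoA reductase (CCR) then takes the CoA esters into the making of monolignols, the building blocks of lignin in xylem and other thickened walls.

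Values are scaled signals, that is the background-subtracted fluorescence of a probe as a multiple of the 75th percentile of its array, which lay between 1802 and 2394 units. They can be compared between arrays for 1 probe but not between probes. Between 71.8% and 78.7% of probes were well above background on an array and no spot was saturated. A gene is said to have risen or fallen where the adjusted p of the limma fit was at most 0.05 and the change was over 1.5-fold. The PROAtCAPE1 probe, as a check of the labels, gave processed signals of 3.99, 6.36 and 2.97 on proatcape1 salt arrays, against 56.6, 44.5 and 48.3 on WT salt arrays. In control medium it gave 5.98, 3.88 and 3.23 in proatcape1, against 641, 869 and 590 in WT. It was not well above background on any of the 6 proatcape1 arrays, which puts it at least 2.31-fold lower than WT under salt and at least 34.8-fold lower in control. These bounds set the dim arrays at the lowest signal that was well above background.

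Under salt, 7 of the 10 genes rose and 1 fell in proatcape1, and 4 rose and 1 fell in WT. Among all 19027 genes tested, 19.6% rose and 26.2% fell with salt in proatcape1, and 17.5% rose and 21.8% fell in WT. The genes that rose in both genotypes were PAL4, C4H, 4CL1 and CCR2, and PAL3 fell in both. The median log2 change of the 10 genes was 0.77 in proatcape1 and 0.52 in WT, beside medians of -0.13 and -0.11 over all genes tested. The adjusted p was at most 0.05 for 9 genes upward and 1 downward in each genotype, beside 33.7% of all genes upward and 48.6% downward in proatcape1 and 31.9% upward and 46.8% downward in WT. The salt and control arrays did not overlap for any of the 10 genes in either genotype, which was also true of 84.8% of all genes in proatcape1 and 81% in WT. Because the 10 genes were chosen with earlier results of these data known, their counts and the shares of all genes are only set side by side.

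**Figure D1:**
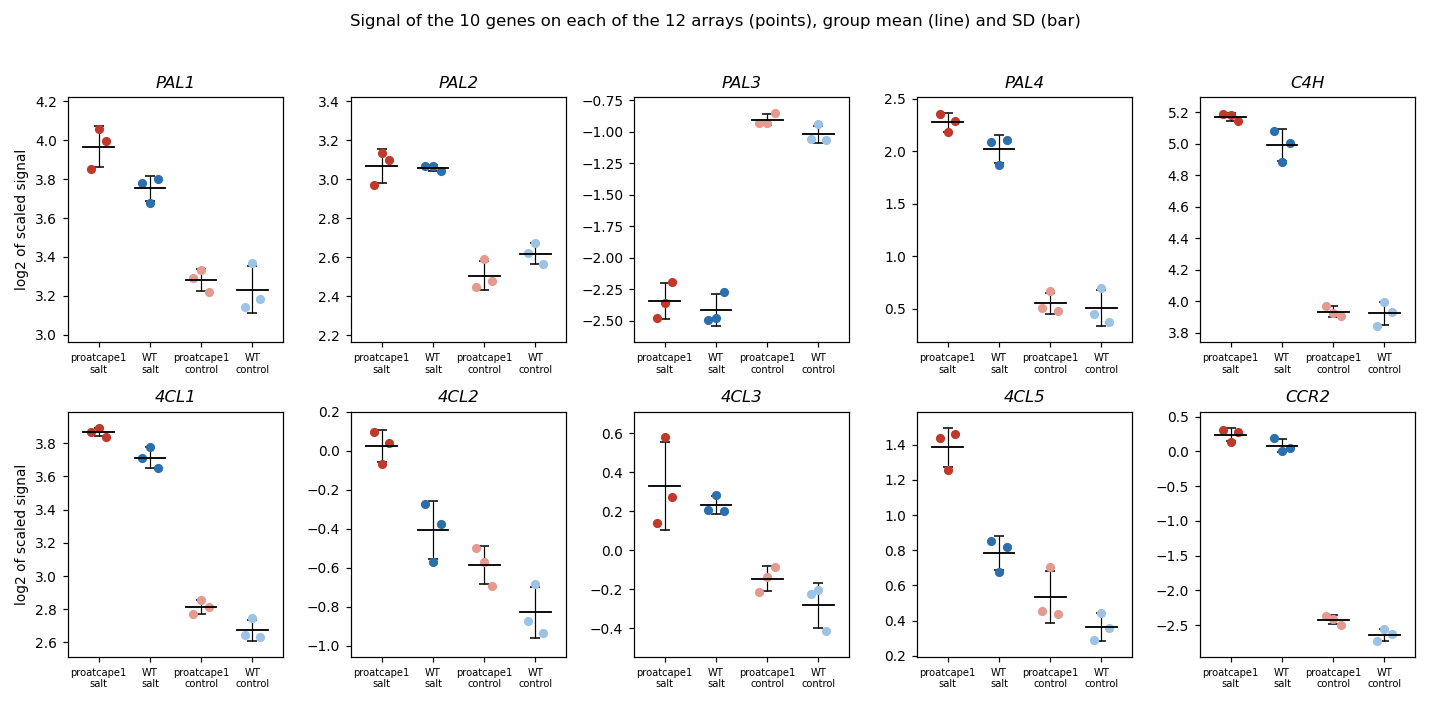
Log2 of the scaled signal (y axis) of the 10 entry genes on each of the 12 arrays (points), in the order proatcape1 salt, WT salt, proatcape1 control and WT control, with the group mean as a line and the SD as a bar (n = 3 arrays each); each panel has its own y range. Within each genotype, salt arrays lie above control arrays in 9 panels and below them for PAL3. The proatcape1 salt arrays of PAL1, PAL4, C4H, 4CL1, 4CL2 and 4CL5 lie above the WT salt arrays.

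The PAL genes did not move as a block. PAL1, PAL2 and PAL4 are known as the active isoforms of Arabidopsis, and PAL3 as a weakly active one. PAL4 had scaled signals of 5.12, 4.53 and 4.88 on proatcape1 salt arrays and 4.26, 3.65 and 4.32 on WT salt arrays, against 1.42, 1.59 and 1.40 on proatcape1 control arrays and 1.36, 1.62 and 1.297 on WT control arrays. It thus rose 3.30-fold in proatcape1 (log2 change 1.72, SE 0.10, adjusted p = 3.15e-08) and 2.86-fold in WT (1.52, SE 0.10, adjusted p = 1.19e-07), the most of the 4 PAL genes.

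PAL3 went the other way. It had scaled signals of 0.179, 0.195 and 0.218 on proatcape1 salt arrays and 0.177, 0.180 and 0.207 on WT salt arrays, against 0.525, 0.524 and 0.553 on proatcape1 control arrays and 0.481, 0.521 and 0.478 on WT control arrays. Every salt array was below every control array. The log2 change was -1.44 in proatcape1 (SE 0.08, adjusted p = 3.03e-08), a level 2.71-fold lower, and -1.39 in WT (SE 0.08, adjusted p = 5.6e-08), 2.63-fold lower. PAL3 was the only one of the 10 genes that was lower under salt.

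PAL1 had scaled signals of 14.4, 16.6 and 15.9 on proatcape1 salt arrays and 13.7, 12.8 and 13.9 on WT salt arrays, against 9.79, 10.1 and 9.34 on proatcape1 control arrays and 8.84, 10.4 and 9.09 on WT control arrays. It rose 1.61-fold in proatcape1 (log2 change 0.68, SE 0.07, adjusted p = 4.83e-06). In WT the change was 1.43-fold (0.52, SE 0.07, adjusted p = 5.42e-05), past the adjusted p but under the 1.5-fold limit. A second, dimmer probe of PAL1 gave log2 changes of 0.65 in proatcape1 and 0.58 in WT, with the same calls. PAL2 had 7.83, 8.79 and 8.57 on proatcape1 salt arrays and 8.40, 8.38 and 8.23 on WT salt arrays, against 5.45, 6.02 and 5.57 on proatcape1 control arrays and 6.14, 6.38 and 5.91 on WT control arrays. Its salt arrays were all above its control arrays, and its log2 changes of 0.56 (SE 0.06) in proatcape1 and 0.44 (SE 0.06) in WT were both under 1.5-fold.

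C4H, the single gene for this step in Arabidopsis, rose in both genotypes. Its scaled signals were 36.4, 36.2 and 35.3 on proatcape1 salt arrays and 33.9, 29.5 and 32.1 on WT salt arrays, against 15.7, 15.2 and 15.0 on proatcape1 control arrays and 14.4, 15.9 and 15.2 on WT control arrays. C4H rose 2.36-fold in proatcape1 (log2 change 1.24, SE 0.06, adjusted p = 7.85e-09) and 2.096-fold in WT (1.07, SE 0.06, adjusted p = 3.08e-08). The control arrays of the genotypes were interleaved, while each proatcape1 salt array was above each WT salt array.

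Among the 4CL genes, 4CL1 and 4CL2 are linked in Arabidopsis mainly with lignin and 4CL3 with flavonoids, and 4CL5 can also activate sinapate. 4CL1 had scaled signals of 14.6, 14.8 and 14.3 on proatcape1 salt arrays and 13.1, 13.7 and 12.6 on WT salt arrays, against 6.83, 7.24 and 7.04 on proatcape1 control arrays and 6.26, 6.72 and 6.19 on WT control arrays. It rose 2.07-fold in proatcape1 (log2 change 1.05, SE 0.05, adjusted p = 7.24e-09) and 2.05-fold in WT (1.04, SE 0.05, adjusted p = 1.11e-08), so the salt effects were nearly equal in size. A second probe of 4CL1 gave 1.02 and 1.09. The 4CL1 signal also had the smallest spread of the 10 genes, with a residual SD of 0.05 on the log2 scale.

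4CL5 showed the widest gap between the genotypes under salt. It had scaled signals of 2.71, 2.39 and 2.75 on proatcape1 salt arrays and 1.81, 1.60 and 1.77 on WT salt arrays, against 1.37, 1.63 and 1.36 on proatcape1 control arrays and 1.22, 1.36 and 1.28 on WT control arrays. All 3 proatcape1 salt arrays were above all other arrays, whereas 1 proatcape1 control array, at 1.63, was above the lowest WT salt array. 4CL5 rose 1.81-fold with salt in proatcape1 (log2 change 0.85, SE 0.09, adjusted p = 3.04e-06). In WT its change was 1.34-fold (0.42, SE 0.09, adjusted p = 0.000894), which did not reach 1.5-fold.

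4CL2 had scaled signals of 1.07, 0.955 and 1.03 on proatcape1 salt arrays and 0.828, 0.674 and 0.769 on WT salt arrays, against 0.709, 0.674 and 0.619 on proatcape1 control arrays and 0.546, 0.623 and 0.523 on WT control arrays. It rose in proatcape1, by 1.53-fold (log2 change 0.61, SE 0.09, adjusted p = 7.72e-05), just past the limit. In WT it changed by 1.34-fold (0.42, SE 0.09, adjusted p = 0.00127). The proatcape1 call was lost with normexp background correction (0.53) and without proatcape1 control replicate 3 (0.56) or proatcape1 salt replicate 1 (0.57).

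4CL3 was the 4CL gene with no call in either genotype. Its scaled signals were 1.1004, 1.49 and 1.21 on proatcape1 salt arrays and 1.16, 1.22 and 1.15 on WT salt arrays, against 0.863, 0.910 and 0.942 on proatcape1 control arrays and 0.855, 0.867 and 0.750 on WT control arrays. The salt arrays were above the control arrays, by log2 changes of 0.48 (SE 0.10, adjusted p = 0.00103) in proatcape1 and 0.51 (SE 0.10, adjusted p = 0.000654) in WT. A second probe of 4CL3 was not well above background on 11 of 12 arrays and another probe of 4CL1 on 4 of 12, and neither passed the filter.

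CCR2, the CCR isoform known from pathogen-treated leaves, had the largest change of the 10 genes. It had scaled signals of 1.24, 1.097 and 1.21 on proatcape1 salt arrays and 1.14, 1.00 and 1.04 on WT salt arrays, against 0.194, 0.189 and 0.177 on proatcape1 control arrays and 0.152, 0.171 and 0.161 on WT control arrays. CCR2 rose 6.34-fold in proatcape1 (log2 change 2.67, SE 0.07, adjusted p = 1.85e-10) and 6.58-fold in WT (2.72, SE 0.07, adjusted p = 2.11e-10). Within the single slides, each of which carried 1 array of each group, the CCR2 salt effect was between 2.54 and 2.78 in proatcape1 and between 2.56 and 2.91 in WT.

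**Figure D2:**
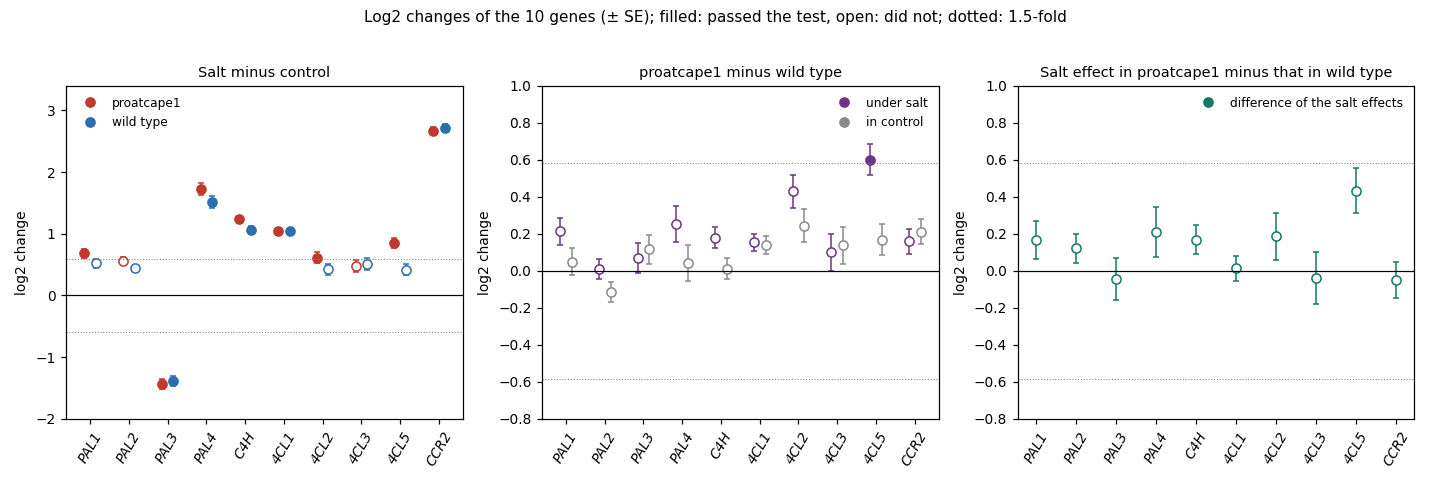
Log2 changes (y axis, with SE bars) of the 10 entry genes (x axis) for salt minus control in proatcape1 and WT (left), proatcape1 minus WT under salt and in control (middle), and the difference of these salt effects, proatcape1 minus WT (right); filled points passed the test, open points did not, and dotted lines mark 1.5-fold. CCR2 is highest in the left panel at 2.67 and 2.72 and PAL3 lowest at -1.44 and -1.39, and in the middle panel 4CL5 under salt, at 0.60, is the one filled point.

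Markers of organs moved with salt beside these genes. Of all genes tested, 19.6% rose and 26.2% fell with salt in proatcape1, and 17.5% rose and 21.8% fell in WT. All 7 root markers fell in proatcape1 and 6 of 7 in WT. EXPA7, which fell in both genotypes, passed the filter on low signal only through its control arrays, so its fall is a description. Sums over markers weigh the brightest probes most and are compared only between arrays. The summed scaled signal of the 7 root markers was 2.08 to 2.23 in proatcape1 salt arrays and 2.02 to 2.45 in WT salt arrays. In control arrays it was 6.59 to 7.71 in proatcape1 and 6.88 to 8.77 in WT. The summed signal of 8 xylem markers was 12.3 to 13.2 and 12.6 to 13.7 in proatcape1 and WT salt arrays, against 10.5 to 11.1 and 9.47 to 11.7 in proatcape1 and WT control arrays, and 1 of the 8 rose in proatcape1 and 4 in WT. Of 7 shoot markers 1 rose with salt in each genotype, LHCB2.1, a light-harvesting protein, by 1.80 in proatcape1 and 1.17 in WT, and none fell. Every marker probe of the shoot, root and xylem lists was well above background on every array. The part of these shifts in the salt effects of the 10 genes was not tested, and in whole seedlings fewer cells of a type and less RNA per cell cannot be told apart.

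Between the genotypes under salt, 4CL5 alone of the 10 genes rose in proatcape1 and none fell, beside 2.71% of all genes that rose and 1.95% that fell. It stood 1.52-fold above WT (log2 difference 0.60, SE 0.09, adjusted p = 0.00126), with differences of 0.58, 0.58 and 0.64 within slides 1, 2 and 3. The value sits at the 1.5-fold limit, and the call was lost with quantile normalization (0.58), with normexp (0.58), and without WT salt replicate 2 (0.55), proatcape1 salt replicate 1 (0.58) or proatcape1 salt replicate 3 (0.56), while the adjusted p stayed under 0.05 in each of these.

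All 10 differences under salt were positive, from 0.01 for PAL2 to 0.60 for 4CL5, with a median of 0.17 beside -0.01 over all genes. The signs of PAL2, PAL3 and 4CL3 turned under some of the alternatives. The 10 differences rest on the same salt arrays and their scaling, so they are not separate observations. Besides 4CL5, 4 more genes passed the adjusted p without reaching 1.5-fold, namely 4CL2 (0.43, SE 0.09, adjusted p = 0.00642), PAL1 (0.21, SE 0.07, adjusted p = 0.0425), C4H (0.18, SE 0.06, adjusted p = 0.0337) and 4CL1 (0.15, SE 0.05, adjusted p = 0.0311). That is 5 of 10 genes, beside 14.6% of all genes higher and 19.4% lower by the same rule. With the replicate number as a block, the adjusted p of C4H was 0.0524. Over the alternative ways of processing, including leaving out 1 array, its difference ran from 0.08 to 0.23. That of PAL1 ran from 0.16 to 0.27 and that of 4CL1 from 0.11 to 0.19. The second probes were lower, at 0.11 for PAL1 (adjusted p = 0.2) and 0.07 for 4CL1 (adjusted p = 0.317).

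The other 5 genes did not pass. PAL4 differed by 0.25 (95% interval 0.04 to 0.47, adjusted p = 0.0661) and CCR2 by 0.16 (0.01 to 0.31, adjusted p = 0.0975). 4CL3 differed by 0.10 (-0.12 to 0.32), PAL3 by 0.07 (-0.11 to 0.25) and PAL2 by 0.01 (-0.11 to 0.13), and none of these 3 intervals reached 1.5-fold. The salt arrays of the genotypes did not overlap for 6 genes, namely PAL1, PAL4, C4H, 4CL1, 4CL2 and 4CL5, each higher in proatcape1, beside 22.4% of all genes with no overlap in that direction and 26.4% in the other. For PAL2, PAL3, 4CL3 and CCR2 the arrays of the genotypes were interleaved.

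Shoot markers moved with genotype under salt as well. The summed scaled signal of 7 shoot markers was 1102 to 1191 in proatcape1 salt arrays, against 988 to 1005 in WT salt arrays, and 6 of the 7 passed the adjusted p upward, with none over 1.5-fold and a median log2 difference of 0.17. In control medium the sum was 995 to 1107 in proatcape1 and 981 to 1039 in WT. There the shoot marker CA1 (0.29, adjusted p = 0.0128) and the xylem marker IRX3 (0.20, adjusted p = 0.0459) passed the adjusted p upward, both under 1.5-fold. Of the root markers TIP2;3, an aquaporin, fell in proatcape1 in control medium (-0.81, adjusted p = 0.013). Under salt it was also lower, but under 1.5-fold (-0.51, adjusted p = 0.0262). The part of these markers in the genotype differences of the 10 genes was not tested.

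In control medium none of the 10 genes passed the adjusted p of limma, beside 5.76% of all genes, and none rose or fell, beside 0.967% of all genes that rose and 1.16% that fell. At an unadjusted p of at most 0.05 the count was 3 at any size of change (4CL2, CCR2 and 4CL1), beside 20% of all genes. Over 1.5-fold it was 0, beside 3.21%. The log2 differences ran from -0.11 for PAL2 to 0.24 (SE 0.09) for 4CL2, with a median of 0.13. CCR2 at 0.21 (95% interval 0.06 to 0.36, adjusted p = 0.109), 4CL1 at 0.14 (0.03 to 0.25, adjusted p = 0.124) and PAL3 at 0.12 (-0.06 to 0.29, adjusted p = 0.477) had no overlap between the genotypes' control arrays. Those 3 of 10 compare with 14.3% of all genes with no overlap in that direction. 4CL5 differed by 0.17 (-0.02 to 0.36, adjusted p = 0.309), and its lowest proatcape1 control array and highest WT control array were both at 1.36. C4H, PAL4 and PAL1 differed by 0.01, 0.04 and 0.05, and 4CL3 by 0.14 (-0.08 to 0.36, adjusted p = 0.497).

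**Figure D3:**
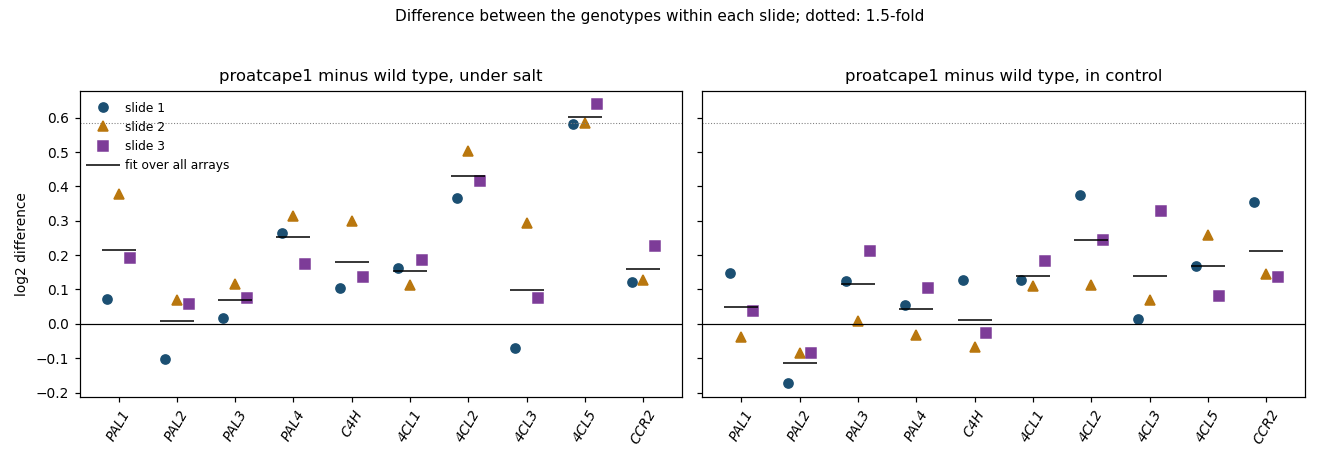
Log2 difference of proatcape1 minus WT (y axis) for the 10 entry genes (x axis) within slide 1, slide 2 and slide 3 (symbols), each slide giving 1 pair of arrays, with the fit over all arrays as a horizontal bar, under salt (left) and in control medium (right); the dotted line marks 1.5-fold. Under salt 4CL5 lies between 0.58 and 0.64 and 4CL2 between 0.37 and 0.50 on the 3 slides, while PAL2 and 4CL3 lie on both sides of 0.

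Set slide by slide, 8 of the 10 genes were higher in proatcape1 than in WT under salt on every slide, beside 31.6% of all genes. The exceptions were PAL2, with -0.10, 0.07 and 0.06, and 4CL3, with -0.07, 0.29 and 0.07. Slide 2 gave the largest difference for PAL1 (0.38, against 0.07 and 0.19 on the other slides) and for C4H (0.30, against 0.10 and 0.14). WT salt replicate 2, on that slide, was the lowest WT salt array for PAL1, PAL4, C4H, 4CL2, 4CL5 and CCR2.

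The salt effect itself did not differ between the genotypes for any of the 10 genes by the test of the difference, beside 1.27% of all genes where it was more positive in proatcape1 and 1.29% where it was more negative by over 1.5-fold, and 7.66% at any size. At an unadjusted p of at most 0.05 the count was 1 at any size of change, beside 27.3% of all genes, and 0 over 1.5-fold, beside 4.55%. The nearest was 4CL5, whose salt effect in proatcape1 was larger than in WT by 0.43 (SE 0.12, 95% interval 0.17 to 0.70, adjusted p = 0.0539), with 0.41, 0.33 and 0.56 on the 3 slides. PAL4 differed by 0.21 (-0.09 to 0.51), 4CL2 by 0.19 (-0.10 to 0.47), PAL1 by 0.17 (-0.06 to 0.39) and C4H by 0.17 (-0.01 to 0.35). The narrowest interval around 0 was that of 4CL1, with a difference of 0.01 (-0.14 to 0.16). Therefore PAL1, 4CL2 and 4CL5, which were called with salt in proatcape1 and not in WT, were not shown to respond differently. PAL2 differed by 0.12 (-0.05 to 0.30), 4CL3 by -0.04 (-0.35 to 0.27), CCR2 by -0.05 (-0.27 to 0.16) and PAL3 by -0.05 (-0.30 to 0.20).

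Across the 12 arrays, the 9 genes other than PAL3 went together, with pairwise correlations of log2 signal between 0.73 (PAL2 with 4CL2) and 0.99, while PAL3 ran against them at -0.98 to -0.75. These values describe arrays that fall into salt and control clusters and share their scaling. The genes outside the 10 with the pattern most like each of them, by Pearson's r over the 12 arrays, were GLY3 (r = 0.998) and AT2G34610 (0.997) for PAL4, APT2 (0.998) and AT1G77350 (0.997) for PAL3, GBF3 and ALDH7B4 (0.999 each) for C4H, AAE12 (0.997) and AT2G47950 (0.996) for 4CL1, and AT4G11350 and SPDS3 (0.999 each) for CCR2. For PAL1 they were AT4G21740 (0.994) and AT5G03230 (0.992), and for PAL2 AT5G52030 (0.990) and AT1G73660 (0.989). For 4CL5 they were AT2G38000 and AT1G30260 (0.982 each), and for 4CL2 a gene named FLS2 by RefSeq (AT5G63580, 0.994) and AT2G41475 (0.990). For 4CL3, whose signal had the widest spread (residual SD 0.13), they were CYT1 and MYB95 (0.964 each).

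The genes around the entry steps were set beside the 10. For the counts of these lists, the shares of all genes are 19.6% that rose and 26.2% that fell with salt in proatcape1. In WT they are 17.5% and 21.8%. Of 18 genes for the supply of phenylalanine, through the shikimate pathway and arogenate, 6 rose and 4 fell with salt in proatcape1, and 5 rose and 4 fell in WT. The risers included the arogenate dehydratases ADT4, ADT5 and ADT6, which form phenylalanine, at log2 changes of 0.99, 0.96 and 0.91 in proatcape1 and 1.12, 1.05 and 0.97 in WT. ADT1 of the same family had 0.58 in proatcape1, under 1.5-fold, and rose by 0.63 in WT, ADT2 fell in both (-0.82 in proatcape1, -0.71 in WT), and ADT3 passed in neither. Those that fell also included the chorismate mutase CM3 (-0.88 and -0.68) and the DAHP synthases DHS1 (-1.26 in proatcape1, -1.096 in WT) and DHS2 (-0.99 and -0.70), which catalyse the first step of the shikimate pathway. The median of the 18 was 0.42 in each genotype. Of the 5 partners of P450 enzymes, the reductase ATR2, which passes electrons to C4H, rose with salt, by 1.24 in proatcape1 and 1.17 in WT, and no other did.

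Downstream, 8 of 13 genes of the monolignol branch rose with salt in proatcape1 and 7 in WT, and none fell, with medians of 0.84 and 0.78. The largest change was that of CAD8 of the cinnamyl alcohol dehydrogenase family, at 5.22 in proatcape1 and 2.55 in WT. CAD8, counted among the risers, passed the filter on low signal only through its salt arrays, so these values are a description. CAD5, a cinnamyl alcohol dehydrogenase of the last monolignol step, rose by 2.52 in proatcape1 and 2.26 in WT, and CAD7 of the same family by 2.06 and 1.81. Of 5 flavonoid genes, F3H (flavanone 3-hydroxylase) rose by 1.60 in proatcape1 and 1.27 in WT, and F3'H (flavonoid 3'-hydroxylase) rose by 0.93 in proatcape1, with 0.33 in WT. Chalcone synthase (CHS), at 0.58 and 0.39, stayed under 1.5-fold. Of the 5 tested sinapate and coumarin genes, F6'H2 (feruloyl-CoA 6'-hydroxylase) fell by 1.78 on the log2 scale in proatcape1 and fell by 1.92 in WT, and none rose. F6'H2 passed the filter only through its control arrays, so its fall is a description.

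Among 11 tested MYB activators of the pathway, 7 rose and 1 fell with salt in proatcape1, and 6 rose and 1 fell in WT. MYB15, known as an activator of defence lignin, rose by 5.38 in proatcape1 and 4.79 in WT, MYB85, a lignin activator, by 2.21 and 1.94, and MYB42 by 1.90 and 1.70. MYB85, MYB42 and MYB83, all among the risers, passed the filter on low signal only through their salt arrays. Their values, and the counts of risers that include them, are therefore a description. The one that fell was MYB111, an activator of flavonol genes, in proatcape1 (-0.73, with -0.30 in WT, under 1.5-fold), and MYB20 in WT (-0.84, with -0.56 in proatcape1, under 1.5-fold). Of 10 repressors, 4 rose and 2 fell in proatcape1, and 4 rose and 3 fell in WT. The repressor-type MYB genes MYB7 (1.87 and 1.60), MYB3 (1.82 and 1.295) and MYB32 (1.22 and 1.18) rose in both genotypes, while MYB4 of the same type was called in neither. KFB20 and KFB01, which encode F-box proteins that send PAL enzymes to degradation, fell in both, and KFB50 fell in WT (-0.61, with -0.55 in proatcape1), while KFB39 of the same family rose by 0.98 and 1.095. KFB20 fell by 2.99 on the log2 scale in proatcape1 and fell by 2.63 in WT.

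Under salt, none of these 67 tested genes rose or fell in proatcape1 relative to WT by the 1.5-fold rule. Among all genes 2.71% rose and 1.95% fell. The list medians ran from -0.06 for sinapate and coumarin genes to 0.21 for flavonoid genes. At any fold, 3 of 5 flavonoid, 3 of 13 monolignol, 3 of 11 activating MYB and 2 of 10 repressor genes passed the adjusted p upward. So did 1 of 5 P450 partners, 1 of 5 sinapate and coumarin genes and 1 of 18 phenylalanine supply genes. Downward, only 4 of the 18 phenylalanine supply genes passed, beside 14.6% of all genes upward and 19.4% downward. In control medium CAD8 alone of the 67 genes was called, beside 0.967% of all genes that rose and 1.16% that fell. It had scaled signals of 0.0135, 0.0328 and 0.0153 in proatcape1 control arrays, against 0.117, 0.0664 and 0.232 in WT control arrays, a log2 difference of -2.69 (SE 0.43, adjusted p = 0.00639). These signals are dim, the difference was -1.66 with normexp, and the call was lost on the slides of the first scan day alone (-2.07, adjusted p = 0.132) and with only the control groups in the fit (adjusted p = 0.0515). Beside these, the one call among the entry genes between the genotypes was 4CL5 under salt.

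**Figure D4:**
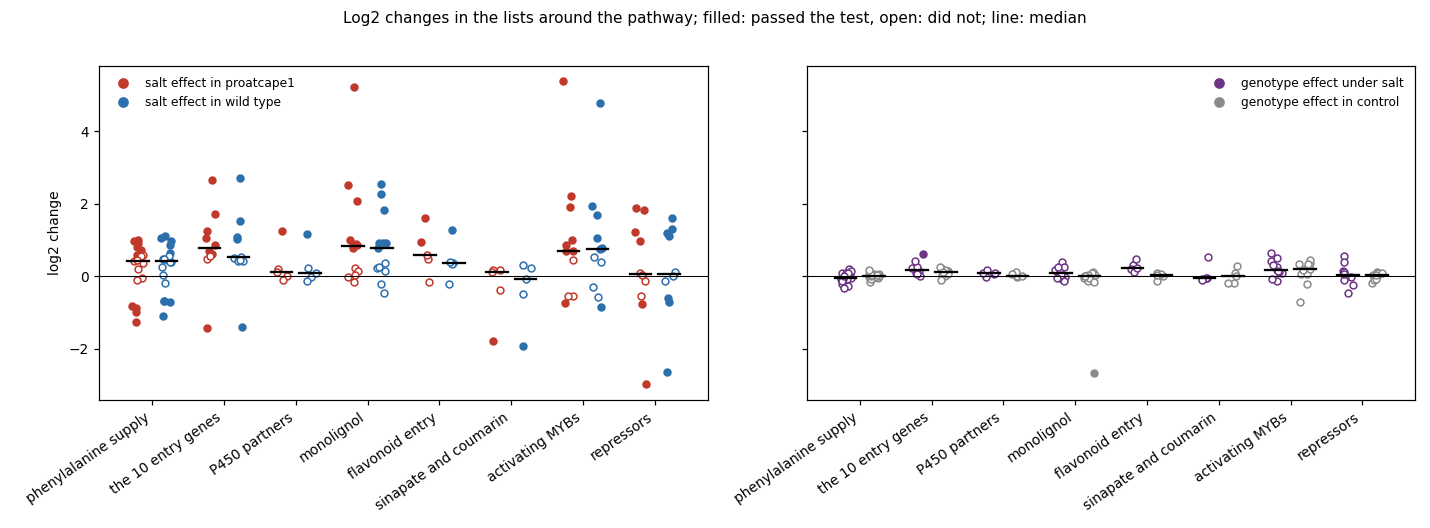
Log2 changes (y axis) of the 10 entry genes and of the genes of 7 lists around them (x axis), 1 point a gene, for salt minus control in proatcape1 and WT (left) and for proatcape1 minus WT under salt and in control (right); filled points passed the test, open points did not, and lines are medians. The medians of the entry genes are 0.77 and 0.52 on the left and 0.17 and 0.13 on the right.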

How the data were processed

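The authors hybridised Cy3-labelled cRNA, 1 sample an array, to Agilent Arabidopsis V4 arrays and read them with Feature Extraction. The deposited intensity of a probe (processed signal) is background-subtracted within its array and not scaled between arrays, and the deposited log2 values of the series table, made by the authors in GeneSpring, equal log2 signal minus the 75th percentile of the array and the median over WT control arrays. Here log2 processed signal minus the 75th percentile was used. The arrays hold 43603 probes, of which 76 with outlier flags were left out, and 34306 of the rest were paired with a locus through RefSeq TAIR10.1 names. Probes with a signal over 100 on all 3 arrays and a CV under 50% in at least 1 group were kept (28833), and the brightest kept probe stood for a locus, 19027 in all. One fit of 4 group means over 12 arrays (limma 3.58.1, R 4.3.3, Python 3.11.15) gave each comparison, with Benjamini-Hochberg adjustment over all genes, and a gene was called where its adjusted p did not exceed 0.05 and its change was over 1.5-fold. The number of arrays limits the precision. The fit was tested on simulated data.

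Each slide held the 4 arrays of 1 replicate number, so slide and replicate are the same block. Same-numbered arrays of the genotypes correlated in their deviations from the group means by 0.24 to 0.37 under salt and by 0.09 to 0.30 in control. Between conditions they correlated by -0.20 to 0.12. The reported fit did not pair samples by number, and the block was used only as an alternative. Same-numbered arrays share a slide, so a pairing of samples and the slide cannot be told apart. Named genes are every member in every comparison, and of each list up to 3 with the largest passed change in each direction and 1 that did not pass. ADT3, KFB39, MYB4 and MYB83 were added after their values were seen. The 10 genes and the lists were chosen with earlier results of these data known. Probe sequences were not used here, so cross-hybridisation between close relatives, such as 4CL1 and 4CL2 or the PAL genes, was not tested. The genes S8H and MYB11 of the lists did not pass the filter. Alternatives were other normalizations, background correction, probe filters, probe averaging, thresholds, the replicate block, the groups compared alone, the authors' log2 values, leaving out each array and, chosen after seeing the data, the slides of the first scan day alone.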

Additional observations from a re-analysis of the deposited data

Results flagged for a closer look

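The salt effect of 2 of the 67 pathway genes beside the entry enzymes was more positive in proatcape1 by the interaction test, beside 1.27% of all genes. CAD8, of the cinnamyl alcohol dehydrogenase family, rose with salt by 5.22 on the log2 scale in proatcape1 and by 2.55 in WT, a difference of 2.67 (SE 0.61, adjusted p = 0.0316), with 2.87, 1.48 and 3.67 on the 3 slides. Its salt arrays were alike (scaled signals 0.561, 0.826 and 0.758 in proatcape1, against 0.664, 0.599 and 0.905 in WT), and its control signal was dim, at 30.3 to 69.8 processed units in proatcape1 and 159 to 478 in WT. CAD8 passed the filter on low signal only through its salt arrays, so its salt effects, their difference and its place in the count of 2 are descriptions. F3'H (flavonoid 3'-hydroxylase) had scaled signals of 2.18, 2.67 and 2.21 in proatcape1 salt arrays and 1.90, 1.79 and 1.44 in WT salt arrays, against 1.24, 1.26 and 1.19 in proatcape1 control arrays and 1.39, 1.46 and 1.23 in WT control arrays. Its salt effect was larger in proatcape1 by 0.60 (SE 0.16, adjusted p = 0.0443), with 0.36, 0.79 and 0.66 on the 3 slides. CAD8 lost the call with normexp background correction (1.64, adjusted p = 0.0512) and F3'H with quantile normalization (0.58, adjusted p = 0.0507), and both lost it without any filter on dim probes and on the slides of the first scan day alone. F3'H also lost it with the filter on signals well above background (adjusted p = 0.0558). Leaving out 1 of the 12 arrays ended the CAD8 call for 9 of them, with differences of 2.21 to 3.11, and the F3'H call for 11 of them, with differences of 0.49 to 0.69. The lower CAD8 signal in proatcape1 control arrays kept its call without any single array.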

How the results depend on the processing

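Over the alternatives, the counts of entry genes that rose or fell stayed within 1.5 times the reported ones, with these exceptions. In WT, 9 genes rose with salt where no fold limit was set (4 as reported). In proatcape1 relative to WT under salt, 5 rose with no fold limit (1 as reported), and 0 with quantile normalization, with normexp background correction or on the slides of the first scan day alone, an alternative chosen after seeing the data. Leaving out 1 array gave 0 to 1, with 0 without WT salt replicate 2, proatcape1 salt replicate 1 or proatcape1 salt replicate 3. The 4CL5 difference was 0.58 on the slides of the first scan day. With the replicate number as a block it kept its call (adjusted p = 0.00346), and the block changed no other call of the 10 genes. Slide as a block is the same fit and was not run apart from it.

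Signs turned only for differences near 0 that passed no test. For the genotype effect under salt, PAL2 was -0.039 with quantile normalization, -0.013 with normexp and -0.016 on the first scan day, and leaving out 1 array gave -0.025 to 0.059 for PAL2, -0.025 to 0.196 for 4CL3 and -0.0063 to 0.141 for PAL3. In control C4H was -0.0034 with quantile normalization, and leaving out 1 array gave -0.029 to 0.046 for C4H and -0.023 to 0.139 for PAL4. For the difference of the salt effects, 4CL1 was -0.014 with quantile normalization, -0.0051 with normexp and -0.031 with the mean of its probes, and 4CL3 was 0.069 on the first scan day. Leaving out 1 array gave -0.023 to 0.045 for 4CL1, -0.163 to 0.058 for 4CL3, -0.094 to 0.0016 for CCR2 and -0.121 to 0.026 for PAL3.

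Calls near 1.5-fold also moved for PAL2 with salt in proatcape1, which passed with quantile normalization (0.60) and without proatcape1 control replicate 2 or proatcape1 salt replicate 1 (0.61 each), and for PAL1 with salt in WT, which passed with quantile normalization (0.64) and without WT control replicate 2 (0.59). For 4CL2 with salt in proatcape1 the call was also lost on the first scan day (0.55).

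Over all genes, the number higher and lower in proatcape1 under salt was 516 and 371, and between 251 and 2785 and between 193 and 3690 over the alternatives, with the highest values at no fold limit. In control it was 184 and 220, and 67 to 622 and 64 to 474 over the alternatives. For the difference of the salt effects it was 241 and 246, and 16 to 540 and 3 to 918. With salt, removing the fold limit gave 6419 higher and 9256 lower in proatcape1 (3728 and 4994 as reported) and 6077 and 8906 in WT (3325 and 4148). No scaling moved the median of all genes by over 0.1 on the log2 scale.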
